A study of Homo sapiens with 12 samples.

Results

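The response of MV4-11 minus the response of THP-1 was measured gene by gene, where a response is the level in libraries labelled shCYTH4 over the level in shControl libraries of the same line. Genes entered if their mean level reached 1 FPKM (fragments per length of transcript and per size of library) in at least 1 group of each line, which 10365 of the 34626 listed genes did; 10364 of them were tested. Just inside that limit, LINC02993 reached 1.47 FPKM in MV4-11 and 1.00 in THP-1, and just outside it NEK8 reached 0.999 and 1.64. The 12 libraries formed 4 groups of 3: MV4-11 with a control short hairpin RNA, MV4-11 with a hairpin labelled against CYTH4, and THP-1 with each of the same. Both are established human acute myeloid leukaemia lines of monocytic type, and no other treatment, time point or hairpin was given in the labels. Each line stands for 1 patient's leukaemia, and hairpin sequence and vector were not given in the sources used here.

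CYTH4 encodes a cytohesin, a guanine nucleotide exchange factor that loads GTP onto ARF proteins, the small GTPases that steer membrane traffic and actin at the cell surface, and it is expressed mainly in blood cells. Several programmes recur below. NF-kB factors such as NFKB2 and RELB drive inflammatory genes in monocytes, MHC class II molecules present peptides to T cells, the ATF4 arm of the integrated stress response raises amino acid synthesis and transport when amino acids run short, and heat shock proteins refold other proteins under the factor HSF1.

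Depth ran from 71730093 to 77782719 estimated counts per library, and 10251 to 11703 genes reached 1 FPKM. All 10 monocytic and myeloid markers reached 1 FPKM in some group, while T cell markers stayed at or below a group mean of 0.102 FPKM and erythroid markers at or below 0.396. B cell markers reached 2.06 FPKM (PAX5, 3 of 5 at 1 FPKM or more) and all 3 megakaryocyte markers reached 1 FPKM (GP9 highest at 1.17). Of 5 epithelial and fibroblast markers 2 did, with KRT18 at 2.94, and their summed level was 3.16 to 4.85 FPKM in MV4-11 shControl, 3.73 to 4.16 in MV4-11 labelled shCYTH4, 1.40 to 2.09 in THP-1 shControl and 0.236 to 0.460 in THP-1 shCYTH4. Their part in the results was not tested. Replicate 3 of THP-1 shCYTH4 stood furthest from its group: its median absolute deviation from the group mean was 0.204 on the log2 scale, against 0.0941 to 0.190 in the other 11 libraries. A further set of libraries stood apart in 10 genes, noticed after the values were seen: CALCA, CEACAM5, CHGB, EPCAM, NTS, PCSK1, SCG2, SST, TSPAN8 and VGF, several of them secretory products of neuroendocrine cells; EPCAM is also on the epithelial list. These genes were picked for reaching at least 0.3 FPKM in each of 8 libraries. In the other 4 they had to stay within 20% of the gene's lowest level in those 8. The 4 were MV4-11 shControl replicate 1 and all 3 THP-1 shCYTH4 libraries. Whether as many genes divide the libraries in other ways was not tested. The summed level of the 10 genes was 17.9 to 21.4 FPKM in the 8 libraries and 0.157 to 0.332 FPKM in the 4. The gap in this split was thus set by the choice of genes. In THP-1 that split and the hairpin cannot be told apart, while in MV4-11 the low library is a control; whether RNA from other cells was mixed into some libraries, or libraries were exchanged, was not tested. The labels do not tell whether replicates are separate cultures, so every p-value speaks only to the spread among these libraries, which may be technical. In bulk RNA, fewer cells of a type and less RNA per cell cannot be told apart.

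CYTH4 itself (ENSG00000100055, chromosome 22, positions 37282027 to 37315341 in the deposited table) was the first check of the labels. In MV4-11 it stood at 20.9, 16.0 and 18.1 FPKM in shControl and at 15.5, 20.6 and 22.3 FPKM in the libraries labelled shCYTH4. Those groups overlapped, with means of 18.3 ± 2.44 and 19.5 ± 3.58 FPKM (SD, n = 3 each), and the response was 0.01 on the log2 scale (adjusted p = 0.988, edgeR quasi-likelihood test with Benjamini-Hochberg adjustment over all 12350 genes tested, as for every adjusted p here). In THP-1 its level was 25.7, 32.2 and 21.01 FPKM in shControl and 15.7, 15.0 and 15.7 FPKM in shCYTH4, so that every shCYTH4 library was below every shControl library. Groups without overlap were common: 23.4% of the 10364 tested genes had them in THP-1, 25.2% in MV4-11 and 5.82% in both. For genes named for a small p, lack of overlap is no further test. CYTH4 fell by 0.89 in THP-1 (adjusted p = 0.0338). The difference between these responses was 0.90 (95% interval 0.34 to 1.46) and missed the threshold (adjusted p = 0.126). The targeted transcript was thus lower in 1 line, and every MV4-11 response below belongs to libraries labelled shCYTH4 in which CYTH4 was not lower.

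A response that differed between the lines was called for 66 of 10364 genes, or 0.637%, at an adjusted p under 0.05 (over all tested genes, 107 of 12350, 0.866%). The MV4-11 response was the more positive in 31 of them (0.299%) and the more negative in 35 (0.338%); with upper-quartile scaling the split was 42 to 28. At an unadjusted p under 0.05 there were 1407 genes. Within the lines, 99 genes were called in MV4-11 (0.955%, against 1.13% of all tested genes), of which 52 rose (0.502%) and 47 fell (0.453%). In THP-1 149 were called (1.44%, against 1.65%), of which 51 rose (0.492%) and 98 fell (0.946%). Both lines called only 3 genes, 3.03% of the MV4-11 calls and 2.01% of the THP-1 calls: GPC4 and ALG5 rose in both, and LYZ moved in opposite directions. Across the 10364 genes, 52.7% had responses of the same sign, and the responses had a Pearson r of -0.01 and a Spearman rho of 0.04, a description over genes that share the same 12 libraries.

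The counts rested on single libraries. With 1 library left out, the difference was called for 61, 33 and 44 genes without MV4-11 shControl replicates 1, 2 and 3, and for 87, 24 and 30 without the MV4-11 replicates labelled shCYTH4. Without THP-1 shControl replicates 1, 2 and 3 it was called for 29, 23 and 27, and without THP-1 shCYTH4 replicates 1, 2 and 3 for 15, 24 and 757. Leaving out the replicate that stood apart thus raised the count to 757, and all 35 genes described below as called for the difference passed without it. The fold changes themselves kept their sign in all 66 genes under every alternative tried. Those genes were picked for their differences in these same libraries, so the kept sign is no independent test.

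**Figure D1:**
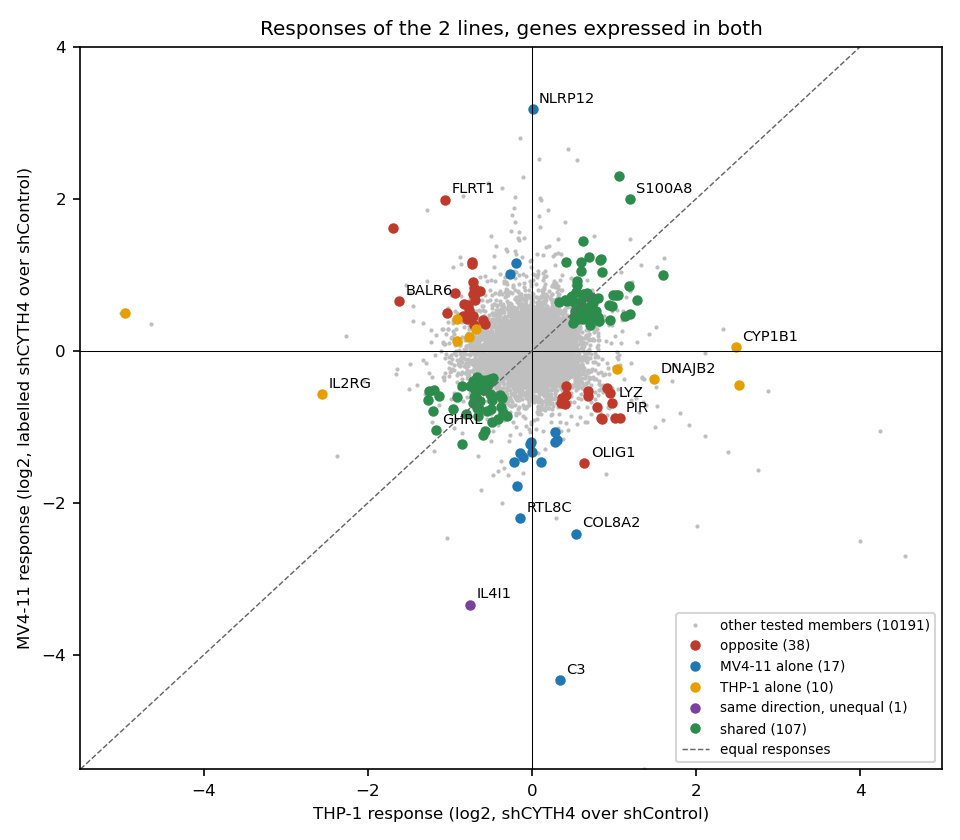
Response of each tested gene in THP-1 (horizontal axis, log2) against its response in MV4-11 (vertical axis, log2), for the 10364 genes at the level in both lines; a few genes with larger changes, such as CALCA, lie outside the plotted range. Red points are opposite responses (38), blue and orange points are responses in MV4-11 alone (17) and THP-1 alone (10), purple is IL4I1, green points are shared responses (107), and the dashed line marks equal responses.

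The 66 genes were sorted by the unadjusted p in each line, under 0.05 or not. Opposite responses made up 38 genes, of which 22 were higher in MV4-11 and lower in THP-1 and 16 the reverse. A response in MV4-11 alone was seen in 17 (3 higher, 14 lower) and in THP-1 alone in 10 (4 higher, 6 lower). The last, IL4I1, had negative responses of unequal size in both. A class of "alone" says that the other line missed the threshold, and the called difference between the lines is the test that separates them. Genes could enter through 1 group of a line, which favours genes that change there. Among genes named below, only 1 MV4-11 group reached 1 FPKM for FLRT1, BARX1-DT, PIR, EBF3, NLRP12, C3, COL8A2, CYP2S1, CHGB, S100A8, G0S2 and GPC4. The same held in THP-1 for OLIG1, NAV3, BALR6, CYP1B1, IL2RG, CHGB, HOXB6, GHRL and POU2F2.

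The opposite response with the smallest adjusted p was that of LYZ (ENSG00000090382, chromosome 12, positions 69348381 to 69354234), which encodes lysozyme, the bacterial wall enzyme of monocyte granules, and is described here after its values were seen. In MV4-11 it stood at 1619, 1646 and 1855 FPKM in shControl and at 1097, 1147 and 1114 FPKM in the libraries labelled shCYTH4. The THP-1 libraries held 392, 304 and 297 FPKM in shControl and 728, 738 and 648 FPKM in shCYTH4. The groups of each line do not overlap, which held for 5.82% of the 10364 genes. The groups move in opposite ways: means went from 1707 ± 129 to 1119 ± 25.5 in MV4-11 and from 331 ± 53.1 to 705 ± 49.6 in THP-1 (SD, n = 3). LYZ fell by 0.68 in MV4-11 (adjusted p = 0.0107) and rose by 0.98 in THP-1 (adjusted p = 0.00188). The difference was -1.67 (95% interval -2.03 to -1.30, adjusted p = 0.000319), and LYZ was the only gene of the 10364 called in both lines in opposite directions.

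OLIG1, a basic helix-loop-helix transcription factor best known from glial cells, also went down in MV4-11. Its levels there were 3.90, 3.50 and 4.59 FPKM in shControl and 1.30, 1.83 and 1.41 FPKM in the libraries labelled shCYTH4. In THP-1 they were 0.782, 0.756 and 0.561 FPKM in shControl and 1.15, 1.22 and 1.19 FPKM in shCYTH4. No libraries overlapped in either line, which held for 5.82% of the 10364 genes. OLIG1 fell by 1.47 in MV4-11 (adjusted p = 0.00354), the THP-1 response of 0.64 missed the threshold (adjusted p = 0.178), and the difference was -2.12 (adjusted p = 0.00949).

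NAV3, a microtubule-associated neuron navigator, gave a difference of -1.75 (adjusted p = 0.0162), with responses of -0.89 and 0.86 that did not pass in either line. APOC1, an apolipoprotein made by macrophages, gave -1.73 (adjusted p = 0.0382) and PIR, a nuclear protein induced by NRF2, gave -1.95 (adjusted p = 0.0485). For these 3 genes the called result is the gap between the lines, not a change in a line. With each library left out in turn, OLIG1 and LYZ passed in all 12 fits and NAV3 in 11, the exception being without THP-1 shControl replicate 2 (adjusted p = 0.0539). PIR passed in 3 of the 12 (adjusted p up to 0.139) and APOC1 in 1 (adjusted p up to 0.124).

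Of the genes higher in MV4-11, FLRT1 encodes a leucine-rich repeat transmembrane protein. It stood at 0.901, 0.354 and 0.883 FPKM in MV4-11 shControl and at 2.00, 3.23 and 3.77 FPKM in the libraries labelled shCYTH4. In THP-1 it stood at 10.3, 10.1 and 14.4 FPKM in shControl and at 4.36, 4.35 and 9.44 FPKM in shCYTH4, where replicate 3 was the highest. FLRT1 rose by 1.99 in MV4-11 (adjusted p = 0.0372), and the THP-1 response was -1.06 (adjusted p = 0.198). The difference of 3.05 (adjusted p = 0.0303) was called in 4 of 12 fits with 1 library left out.

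BARX1-DT, a noncoding transcript divergent from BARX1, rose by 1.17 in MV4-11 (adjusted p = 0.0214), and its difference of 1.90 (adjusted p = 0.0143) passed in all 12 such fits. Its THP-1 response was -0.73 (adjusted p = 0.113). BALR6, a long noncoding RNA known from acute lymphoblastic leukaemia, fell by 1.61 in THP-1 (adjusted p = 0.0209), from 1.99, 1.65 and 1.37 FPKM to 0.464, 0.392 and 0.881 FPKM. In MV4-11 it went from 15.1, 14.2 and 19.3 FPKM to 25.6, 29.2 and 25.9 FPKM, a response of 0.66 (adjusted p = 0.253). The difference of 2.27 (adjusted p = 0.0158) was lost without THP-1 shCYTH4 replicate 1 (adjusted p = 0.0505). CST7, which encodes cystatin F, an inhibitor of lysosomal proteases in immune cells, rose by 1.14 in MV4-11 (adjusted p = 0.0497) and had a THP-1 response of -0.72 (adjusted p = 0.209), with a difference of 1.86 (adjusted p = 0.0348). FCGR1A, the high-affinity Fc receptor for IgG, chosen after its values were seen, fell by 0.71 in THP-1 (adjusted p = 0.0331). Its MV4-11 response was 0.34 (adjusted p = 0.318), with a difference of 1.05 (adjusted p = 0.0303). Its near-identical copies FCGR1BP and FCGR1CP may share its reads. The differences of CST7 and FCGR1A passed in 4 and 6 of the 12 fits with 1 library left out. FLRT1 overlaps MACROD1 and BALR6 overlaps TBC1D5 on the other strand, and whether the counting used strand is not given in the sources used here.

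**Figure D2:**
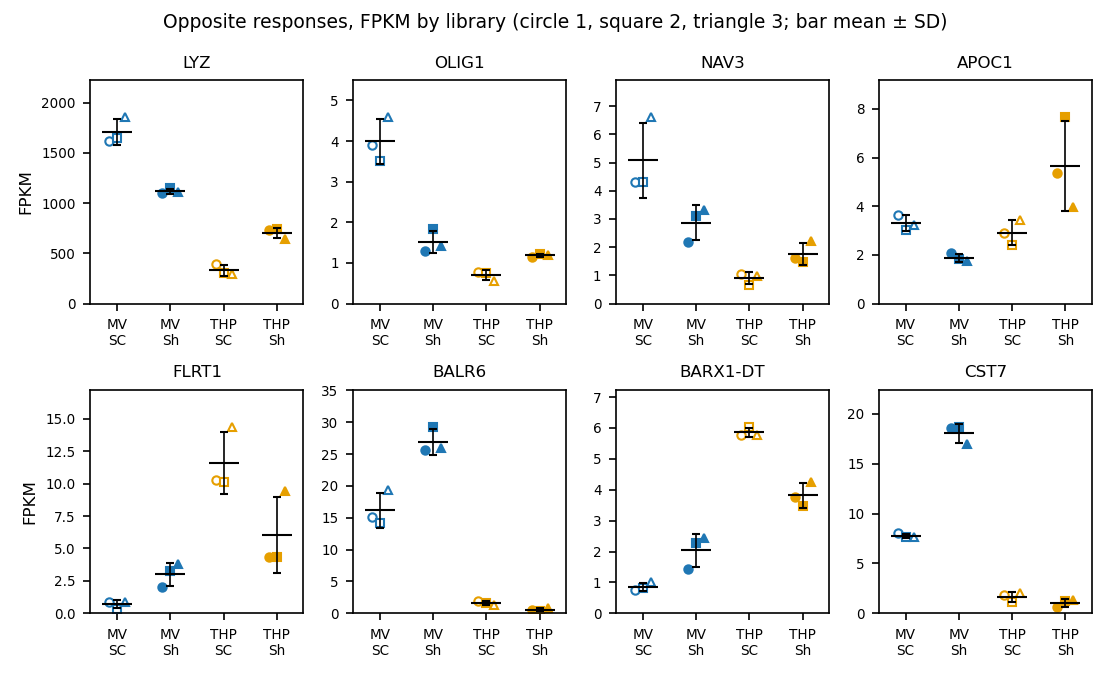
FPKM by library for 8 genes with opposite responses: each panel has 1 gene, the horizontal axis holds shControl (SC, open) and shCYTH4-labelled (Sh, filled) libraries of MV4-11 (blue) and THP-1 (orange), the vertical axis is FPKM from 0, and bars are mean ± SD (n = 3). LYZ, OLIG1, NAV3 and APOC1 are lower in the MV4-11 libraries labelled shCYTH4 and higher in THP-1, and FLRT1, BALR6, BARX1-DT and CST7 show the reverse in their means; the THP-1 groups of CST7 overlap.

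Among the responses in MV4-11 alone, C3 (ENSG00000125730, chromosome 19, positions 6677704 to 6730562) was the most negative. C3 is the central component of complement and is made by macrophages. It stood at 4.84, 5.09 and 4.21 FPKM in MV4-11 shControl and at 0.220, 0.238 and 0.267 FPKM in the libraries labelled shCYTH4. The THP-1 levels were 2.18, 2.55 and 2.54 FPKM in shControl and 3.57, 4.82 and 1.54 FPKM in shCYTH4, where the groups overlapped. C3 fell by 4.33 in MV4-11 (adjusted p = 3.43e-05), and the difference was -4.66 (95% interval -5.62 to -3.71, adjusted p = 0.000319). It shares a strand with GPR108, which overlaps it. COL8A2, a basement membrane collagen, fell by 2.40 in MV4-11 (adjusted p = 0.00224, difference -2.95). RTL8C, a gene derived from a retrotransposon, fell by 2.20 (adjusted p = 0.000149, difference -2.06), and CYP2S1, a cytochrome P450, fell by 1.78 (adjusted p = 0.000373, difference -1.60). THP-1 levels stood at 13.6 to 15.4 FPKM for RTL8C and 7.68 to 11.3 for CYP2S1, with shControl and shCYTH4 overlapping in each. COL8A2 stood at 3.54, 3.53 and 6.26 FPKM in THP-1 shControl and at 8.51, 8.90 and 3.47 FPKM in shCYTH4. Its shCYTH4 replicates 1 and 2 were above every control there, and replicate 3 made the groups overlap. With 1 library left out, the differences of C3, COL8A2 and RTL8C passed in all 12 fits and that of CYP2S1 in 9.

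NFKB2 and RELB, which encode the partners of noncanonical NF-kB, and MHC class II genes belonged to the same class. NFKB2 stood at 5.96, 8.09 and 6.12 FPKM in MV4-11 shControl and at 2.89, 3.44 and 3.78 FPKM in the libraries labelled shCYTH4. Levels in THP-1 were 4.50, 5.01 and 5.35 FPKM in shControl and 6.29, 6.74 and 6.51 FPKM in shCYTH4, which were all above the controls. NFKB2 fell by 1.07 in MV4-11 (adjusted p = 0.00263) and the difference was -1.35 (adjusted p = 0.0138). RELB fell by 1.45 (adjusted p = 0.000334) and the difference was -1.24 (adjusted p = 0.026). HLA-DQB1 fell by 1.19 (adjusted p = 0.00224) and HLA-DRB1 by 1.22 (adjusted p = 0.00251) with differences of -1.19 (adjusted p = 0.0348) and -1.20 (adjusted p = 0.0378). CD70, the ligand of CD27 and a surface marker of leukaemic cells, and ZC3H12A, an RNase that degrades inflammatory mRNAs, both described after their values were seen, fell by 1.39 and 1.45 in MV4-11 (adjusted p = 0.000334 and 0.000876), with differences of -1.28 (adjusted p = 0.0162) and -1.56 (adjusted p = 0.0141). The differences of NFKB2 and ZC3H12A passed in all 12 fits with 1 library left out, that of CD70 in 9, RELB in 5, and HLA-DQB1 and HLA-DRB1 in 3 each. The THP-1 responses of these 6 genes lay between -0.21 (RELB) and 0.28 (NFKB2), with none called.

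Rises in MV4-11 alone were fewer. NLRP12 (ENSG00000142405, chromosome 19, positions 53793741 to 53824403), an NLR family protein of myeloid cells that restrains NF-kB signalling, was described after its values were seen. It stood at 0.224, 0.146 and 0.217 FPKM in MV4-11 shControl and at 1.48, 2.25 and 1.93 FPKM in the libraries labelled shCYTH4. THP-1 held 1.43, 1.38 and 2.57 FPKM in shControl and 1.78, 1.67 and 2.40 FPKM in shCYTH4, with the groups overlapping. NLRP12 rose by 3.19 in MV4-11 (adjusted p = 3.59e-05), was 0.01 in THP-1, and differed by 3.18 (adjusted p = 0.00164). Its promoter is shown because this is the largest rise described here for MV4-11: 250 bases before the start, from RefSeq on GRCh38.p14, chr19:53824315-53824564, minus strand. The deposited table starts this minus-strand gene at 53824403, so part of the window lies inside the gene as listed there. Capitals mark the only match to TGATGNAA, the C/EBP-ATF element, here on the other strand as TTTCATCA. Other motifs were scanned too, and each had 0 matches in this window. Of the 35116 windows of 300 bases, 3.62% hold TGATGNAA on either strand. FCGR1A also held 1 match to TGATGNAA in its window, while DDIT4, PCK2 and VLDLR of the ATF4 list below held 0.
NLRP12: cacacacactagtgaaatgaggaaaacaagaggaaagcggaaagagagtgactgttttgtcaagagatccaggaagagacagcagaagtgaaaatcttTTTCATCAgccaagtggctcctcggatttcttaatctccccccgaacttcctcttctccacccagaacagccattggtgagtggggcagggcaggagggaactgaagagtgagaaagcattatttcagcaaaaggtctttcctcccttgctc
A match is a description of these letters and not a site of binding. EBF3, a transcription factor, and VLDLR, a lipoprotein receptor on the ATF4 list below, rose by 1.16 (adjusted p = 0.0153) and 1.01 (adjusted p = 0.0214) in MV4-11, with differences of 1.35 and 1.27 that were called in 1 of 12 fits with 1 library left out (adjusted p = 0.0488 and 0.0485 with all libraries). In THP-1 EBF3 stood at 4.89, 3.11 and 3.06 FPKM in shControl and at 2.87, 2.81 and 4.80 FPKM in shCYTH4. VLDLR stood at 14.7, 9.48 and 11.8 FPKM and at 8.95, 7.95 and 15.5 FPKM. For both genes, THP-1 shCYTH4 replicates 1 and 2 lay below every control, and replicate 3 made the groups overlap.

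Responses in THP-1 alone included CYP1B1, a cytochrome P450 and the classic target of the aryl hydrocarbon receptor. It stood at 0.773, 0.531 and 0.309 FPKM in THP-1 shControl and at 3.77, 3.58 and 2.37 FPKM in shCYTH4. In MV4-11 it stood at 2.37, 2.49 and 4.26 FPKM and at 3.94, 2.75 and 3.22 FPKM, where the groups overlapped. CYP1B1 rose by 2.48 in THP-1 (adjusted p = 0.00266) and the difference was -2.43 (adjusted p = 0.0162). DNAJB2, a cochaperone, rose by 1.49 in THP-1 (adjusted p = 0.0033, difference -1.85), from 1.02, 1.24 and 1.29 FPKM to 3.93, 4.25 and 2.67 FPKM. HTR7, a serotonin receptor, rose by 1.03 (adjusted p = 0.0165, difference -1.27). With 1 library left out, the differences passed in all 12 fits for DNAJB2, 9 for CYP1B1 and 4 for HTR7.

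IL2RG, the common gamma chain of cytokine receptors, stood at 2.00, 2.12 and 1.79 FPKM in THP-1 shControl and at 0.213, 0.281 and 0.577 FPKM in shCYTH4. IL2RG fell by 2.56 in THP-1 (adjusted p = 0.00188) and the difference was 1.99 (adjusted p = 0.0382). In MV4-11 it went from 5.85, 4.17 and 4.96 FPKM to 4.62, 2.92 and 3.21 FPKM. NREP, a regulator of neuronal regeneration, and ARMH1, an armadillo-like protein, fell by 0.92 and 0.91 (adjusted p = 0.0419 and 0.00582), with differences of 1.34 (adjusted p = 0.0412) and 1.03 (adjusted p = 0.0196). The differences passed in 2 of the 12 fits with 1 library left out for IL2RG, 1 for NREP and 8 for ARMH1.

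Enzymes of cholesterol synthesis were among the falls in THP-1. FDPS, which makes farnesyl diphosphate, stood at 83.4, 100 and 84.5 FPKM in THP-1 shControl and at 54.3, 54.3 and 63.2 FPKM in shCYTH4, and FDFT1, which makes squalene, stood at 81.9, 90.7 and 76.6 and at 50.4, 51.4 and 66.5. No libraries overlapped for either gene, which held for 23.4% of the 10364 genes in THP-1. Both fell in THP-1, FDPS by 0.76 (adjusted p = 0.0129) and FDFT1 by 0.68 (adjusted p = 0.0323), with differences of 0.94 (adjusted p = 0.0288) and 0.98 (adjusted p = 0.0331). In MV4-11 FDPS stood at 52.7, 50.2 and 48.9 FPKM in shControl and at 64.2, 60.5 and 57.5 FPKM in the libraries labelled shCYTH4, a response of 0.18 that missed the threshold (adjusted p = 0.555). ACAT2, a thiolase of the same pathway, had a difference of 1.01 (adjusted p = 0.0495). Its responses, 0.41 in MV4-11 (adjusted p = 0.257) and -0.59 in THP-1 (adjusted p = 0.0753), were not called in either line. The differences passed in 5, 4 and 1 of the 12 fits with 1 library left out for FDPS, FDFT1 and ACAT2, and in neither fit with a replicate block. FDFT1, ACAT2 and the list were singled out after their values were seen. Of 22 genes in the cholesterol list, 19 had a positive difference with a median of 0.61, against 0.0211 for all tested genes. The difference was called for 2 of the 22, against 0.866% of all tested genes. FDPS overlaps RUSC1-AS1 and ACAT2 overlaps TCP1 on the other strand.

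CHGB, a secretory granule protein of neuroendocrine cells and 1 of the 10 genes above, was chosen after its values were seen. It stood at 0.989, 1.19 and 0.878 FPKM in THP-1 shControl and at 0.0226, 0.0196 and 0.0589 FPKM in shCYTH4. In MV4-11 it stood at 0.0937, 1.27 and 1.22 FPKM in shControl and at 1.12, 1.29 and 1.35 FPKM in the libraries labelled shCYTH4. The 1 low MV4-11 library is shControl replicate 1. The difference was 5.45 (adjusted p = 0.032), and 4.92 (adjusted p = 5.81e-05) without that replicate, but it passed in only 4 of the 12 fits with 1 library left out (adjusted p up to 0.131). A response to the hairpin in THP-1 and the split of the libraries over the 10 genes cannot be told apart for CHGB.

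**Figure D3:**
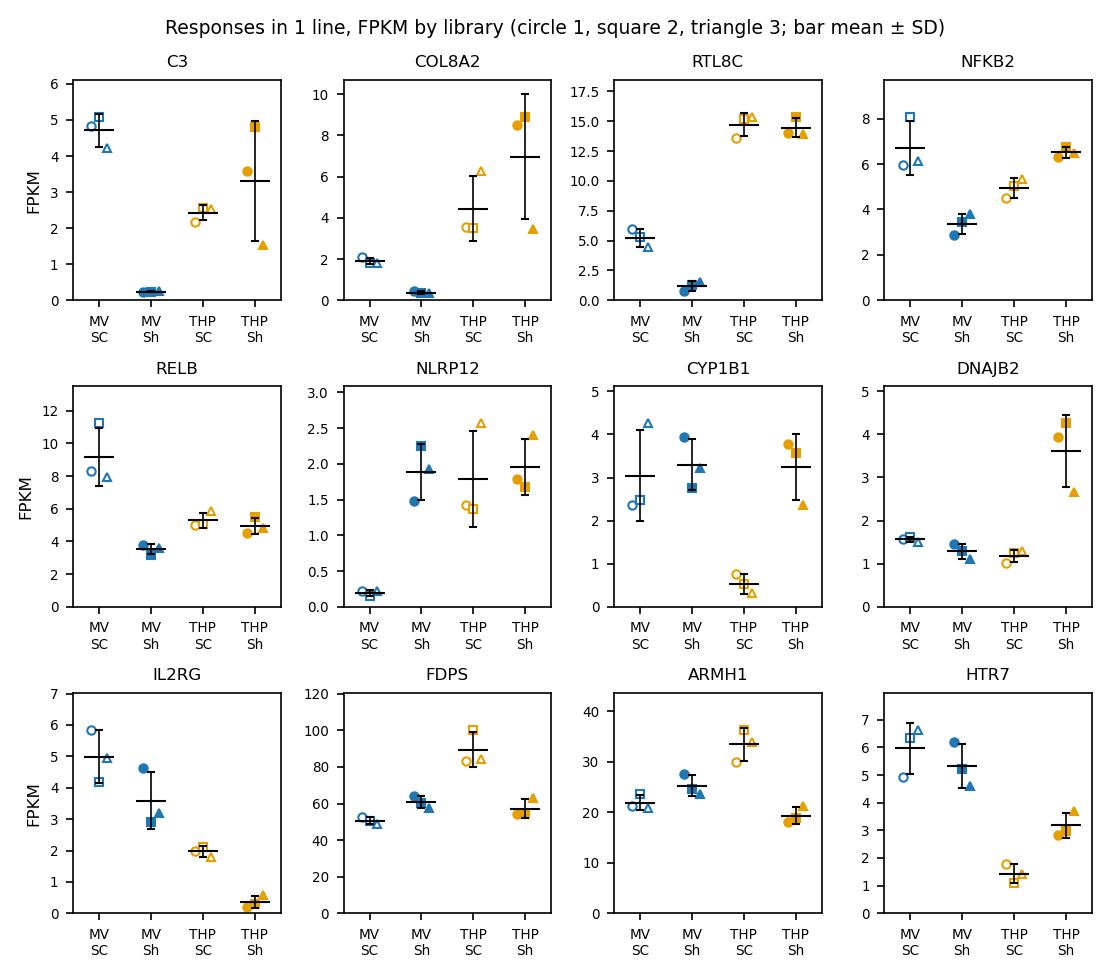
FPKM by library for 12 genes with a response in 1 line: each panel is 1 gene, with open symbols for shControl (SC), filled symbols for shCYTH4-labelled libraries (Sh), blue for MV4-11, orange for THP-1 and bars for mean ± SD (n = 3) on an FPKM axis from 0. C3, COL8A2, RTL8C, NFKB2 and RELB are lower and NLRP12 higher in MV4-11 libraries labelled shCYTH4, whereas CYP1B1, DNAJB2 and HTR7 are higher and IL2RG, FDPS and ARMH1 lower in THP-1 shCYTH4.

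IL4I1, a secreted L-amino acid oxidase of myeloid cells, chosen after its values were seen, had negative responses of unequal size in both lines, of which only that of MV4-11 was called. It stood at 23.5, 43.6 and 17.3 FPKM in MV4-11 shControl and at 3.06, 2.78 and 2.96 FPKM in the libraries labelled shCYTH4. In THP-1 it stood at 2.71, 2.24 and 2.14 FPKM and at 1.22, 1.18 and 2.14 FPKM, where the groups overlapped. IL4I1 fell by 3.34 in MV4-11 (adjusted p = 4.99e-05), was -0.75 in THP-1 (adjusted p = 0.223), and differed by -2.58 (adjusted p = 0.0133). It overlaps NUP62 on the same strand and ATF5 on the other, so its level is uncertain.

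Shared responses were taken as genes whose mean response over the lines passed, with the same sign and an unadjusted p under 0.05 in each line, and no called difference. The mean response passed in 1.9% of the 10364 genes (2.02% of all tested genes), higher in 0.791% and lower in 1.11%. There were 107 shared responses, of which 56 were higher and 51 lower. In 81 of them the 95% interval of the difference lay within 1 log2 unit of 0; for the rest, equal responses were not shown. Only GPC4, a heparan sulphate proteoglycan, and ALG5, a glucosyltransferase of N-glycan synthesis, were called in both lines on their own. GPC4 stood at 0.722, 0.727 and 0.830 FPKM in MV4-11 shControl and at 2.22, 1.86 and 1.60 in the libraries labelled shCYTH4, and at 5.30, 4.34 and 4.64 and at 8.19, 7.58 and 9.21 in THP-1. It rose by 1.24 and 0.70 (adjusted p = 0.000805 and 0.0376), and ALG5 rose by 0.73 and 0.99 (adjusted p = 0.0356 and 0.0119). Both were named after their values were seen, and ALG5 overlaps EXOSC8 on the other strand.

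PRAM1, an adaptor of myeloid cells, had responses of -1.22 in MV4-11 and -0.85 in THP-1 and a mean of -1.04 (adjusted p = 0.00925). CXCR3, a chemokine receptor, had -0.79 and -1.20 (mean -0.99, adjusted p = 0.00951), and GHRL, the ghrelin gene, had -1.04 and -1.17 (mean -1.11, adjusted p = 0.0106). These 3 passed in all 12 fits with 1 library left out. S100A8, a calcium-binding protein of monocytes and neutrophils, had 2.00 and 1.19 (mean 1.60, adjusted p = 0.023). Its levels were 0.599, 0.292 and 0.701 FPKM in MV4-11 shControl and 3.10, 2.39 and 1.46 in the libraries labelled shCYTH4, and 6.05, 5.98 and 1.71 and 12.3, 7.47 and 14.4 FPKM in THP-1. G0S2, an inhibitor of lipolysis, had 2.31 and 1.07 (mean 1.69, adjusted p = 0.0278), but its THP-1 rise stood in replicate 3 at 13.3 FPKM, with 2.62 and 2.86 in the others; without that replicate the mean was 1.12. HOXB6, a homeobox factor, had its THP-1 rise in replicates 1 and 2 at 1.83 and 1.73 FPKM, with 0.457 in replicate 3 (mean response 1.30, adjusted p = 0.0325). GPR183, the oxysterol receptor that guides immune cells, had 0.86 and 1.19 (mean 1.02, adjusted p = 0.0412) and overlaps UBAC2 on the other strand, and POU2F2, a transcription factor of the octamer motif, had -0.83 and -0.80 (mean -0.81, adjusted p = 0.0337). S100A8, G0S2, HOXB6, GPR183 and POU2F2 passed in 7, 5, 2, 3 and 3 of the 12 fits with 1 library left out.

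**Figure D4:**
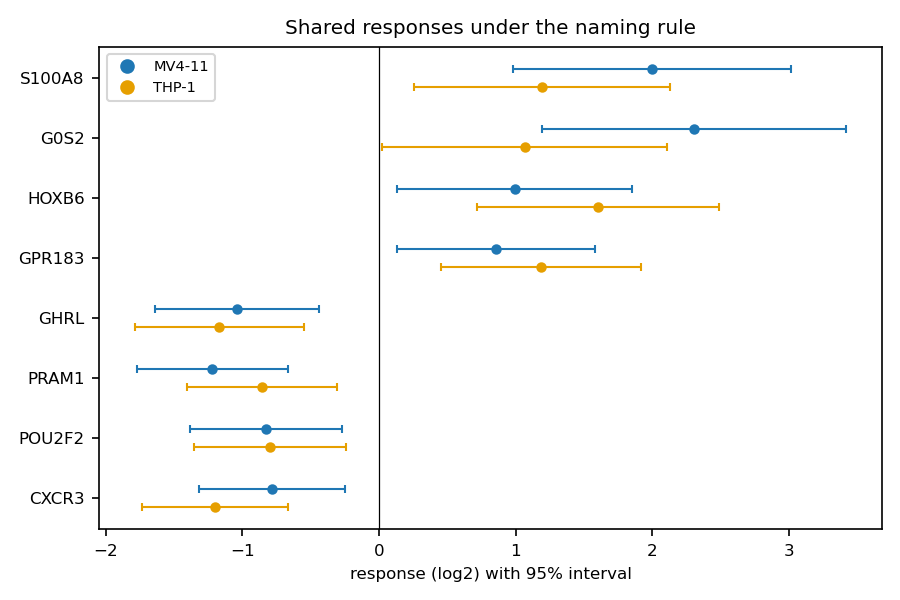
Response on the log2 scale (horizontal axis) with its 95% interval for the 8 genes named as shared, in MV4-11 (blue) and THP-1 (orange). S100A8, G0S2, HOXB6 and GPR183 lie to the right of 0 in both lines, and GHRL, PRAM1, POU2F2 and CXCR3 to the left.

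Gene lists were described by the median difference over their tested members, beside 0.0211 over all tested genes. Medians and counts of a list include tested members below the level required in both lines. That level was reached by 15 of 17 members of the ATF4 list, 14 of 15 heat shock genes and 10 of 11 amino acid transporters. It was reached by 6 of 8 MHC class II genes, 11 of 18 in the NF-kB list and 23 of 25 in the cytohesin list. Of all tested genes, 0.866% were called for the difference, 1.13% in MV4-11 and 1.65% in THP-1. Among the 32 lists with at least 5 tested members, the ATF4 and integrated stress response list had the highest, 1.44: 15 of 17 members were above 0, and 1, VLDLR, was called. In the MV4-11 libraries labelled shCYTH4 its median stood 1.10, 1.36 and 1.32 log2 units above the shControl mean, and in THP-1 at -0.53, -0.67 and 0.78, replicate 3 going the other way. Without THP-1 shCYTH4 replicate 3 the median difference was 2.15, and with limma on log2(FPKM + 1) it was 0.69. TRIB3, a pseudokinase target of ATF4, stood at 5.64, 3.32 and 5.38 FPKM in MV4-11 shControl and at 27.1, 29.1 and 31.2 FPKM in the libraries labelled shCYTH4, and at 23.5, 25.8 and 36.3 and 20.9, 16.6 and 62.0 in THP-1. TRIB3 rose by 2.52 in MV4-11 (adjusted p = 0.0297), and its difference of 2.43 missed the threshold (adjusted p = 0.114). DDIT4, an inhibitor of mTOR signalling, had the closest value, 2.87 (adjusted p = 0.0518); its THP-1 shCYTH4 libraries stood at 10.3, 11.6 and 39.4 FPKM against 31.1, 35.8 and 33.1 FPKM in shControl. Without replicate 3 these differences were 3.24 for TRIB3 (adjusted p = 4.11e-05) and 3.75 for DDIT4 (adjusted p = 5.57e-07). Each was called in only that 1 of the 12 fits with 1 library left out (adjusted p up to 0.251 and 0.137). That fit was singled out after the values of replicate 3 were seen, so its p-values are no separate test.

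The serine and glycine synthesis list followed, with a median difference of 1.38 and 15 of 16 above 0, and none called; PSPH and CBS rose in MV4-11, PSPH by 1.27 (adjusted p = 0.0127) and CBS by 1.78 (adjusted p = 0.041). Amino acid transporters had a median of 0.78, with 10 of 11 above 0 and none called, and SLC3A2, the heavy chain of heteromeric transporters, rose by 0.74 in MV4-11 (adjusted p = 0.0191). By library both lists resembled the ATF4 list: the serine and glycine median was 1.28, 1.33 and 1.23 in MV4-11 and -0.47, -0.58 and 0.62 in THP-1. What set replicate 3 of THP-1 shCYTH4 apart was not tested.

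All 15 heat shock genes had a negative difference, with a median of -0.89, and 1 was called, against 0.866% of all tested genes. BAG3, a cochaperone of HSP70, stood at 9.34, 10.2 and 9.09 FPKM in MV4-11 shControl and at 7.20, 6.88 and 7.56 FPKM in the libraries labelled shCYTH4. In THP-1 it stood at 11.6, 11.1 and 10.6 FPKM and at 25.5, 28.0 and 14.3 FPKM, so that neither line's groups overlapped. That held for 5.82% of the 10364 genes. BAG3 rose by 0.92 in THP-1 (adjusted p = 0.037), was -0.48 in MV4-11 (adjusted p = 0.294), and differed by -1.40 (adjusted p = 0.0316), a call kept in 3 of the 12 fits with 1 library left out (adjusted p up to 0.0988). HSPA1A, an inducible HSP70, stood at 15.3, 15.7 and 19.3 FPKM in THP-1 shControl and at 93.0, 122 and 18.9 FPKM in shCYTH4, replicate 3 lying with the controls. In MV4-11 it went from 26.2, 27.0 and 24.1 FPKM to 11.3, 12.5 and 13.7 FPKM. Its difference of -3.24 missed the threshold (adjusted p = 0.0903), as did that of its near-identical copy HSPA1B at -2.89 (adjusted p = 0.0684), and without replicate 3 they were -3.70 and -3.32 (adjusted p = 2.27e-07 and 5.86e-07). HSPA1A and HSPA1B were called in only that 1 of the 12 fits with 1 library left out (adjusted p up to 0.225 and 0.191), which is no separate test.
Promoters of these 3 genes are shown because their differences have the same sign: 250 bases before the start from RefSeq on GRCh38.p14, all on the plus strand, at chr6:31815293-31815542, chr6:31827488-31827737 and chr10:119651130-119651379 in the order printed. Capitals mark matches to GAANNTTC, the core of the heat shock element, held by 6.77% of the 35116 windows on either strand.
HSPA1A: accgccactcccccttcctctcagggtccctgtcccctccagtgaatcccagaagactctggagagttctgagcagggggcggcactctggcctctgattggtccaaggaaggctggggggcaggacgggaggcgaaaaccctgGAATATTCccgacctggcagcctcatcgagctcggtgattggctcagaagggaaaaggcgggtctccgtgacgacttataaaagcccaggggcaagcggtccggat
HSPA1B: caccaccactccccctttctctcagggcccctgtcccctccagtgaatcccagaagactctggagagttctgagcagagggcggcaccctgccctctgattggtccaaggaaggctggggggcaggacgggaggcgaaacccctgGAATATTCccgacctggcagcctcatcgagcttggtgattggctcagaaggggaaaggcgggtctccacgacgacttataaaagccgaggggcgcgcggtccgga
BAG3: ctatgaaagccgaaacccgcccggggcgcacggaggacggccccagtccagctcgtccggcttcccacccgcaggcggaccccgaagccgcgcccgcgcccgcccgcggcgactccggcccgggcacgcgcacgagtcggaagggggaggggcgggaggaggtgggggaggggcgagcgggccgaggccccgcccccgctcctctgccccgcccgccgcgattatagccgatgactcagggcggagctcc
HSPA1A and HSPA1B each hold 1 match and BAG3 none in this window, which says nothing of the factor elsewhere. HSPH1 of the same list held 0 matches in its window, and HLA-DQB1 held 1.

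MHC class II genes had a median difference of -0.92, with 7 of 8 below 0 and 2 called, against 0.866% of all tested genes. Their median response was -1.11 in MV4-11 and -0.31 in THP-1, so the median was below 0 in both lines. Of the 8, 5 were called lower in MV4-11, where 1.13% of all tested genes were called, and none was called in THP-1. HLA-DRA was among these 5, with a fall of 1.58 (adjusted p = 0.00126), but its difference of -1.17 missed the threshold (adjusted p = 0.079). HLA-DRB1 and HLA-DRB5 are related genes of similar sequence. The differences of HLA-DRB5 and CD74 were -0.57 and -0.39 and missed the threshold (adjusted p = 0.397 and 0.389). In THP-1 the responses of HLA-DRA, HLA-DRB5 and CD74 were -0.42, -0.41 and -0.21. Those of HLA-DQB1 and HLA-DRB1 there were -0.01 and -0.02. The NF-kB and inflammatory list had a median of -0.75, with 14 of 18 below 0, but only 11 of the 18 were at the level required in both lines. In MV4-11, 8 of the 18 were called lower. In THP-1, where 1.65% of all tested genes were called, 2 were called lower, TNF and IER3. Of 3 called for the difference, CXCL10 was below the level required in THP-1. The cytohesin and ARF list, taken without CYTH4, had a median of -0.12 with 8 of 25 above 0, and its single called gene, ACAP1, was outside the level required in both lines. Lists were chosen with earlier results known, so their medians are descriptions.

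**Figure D5:**
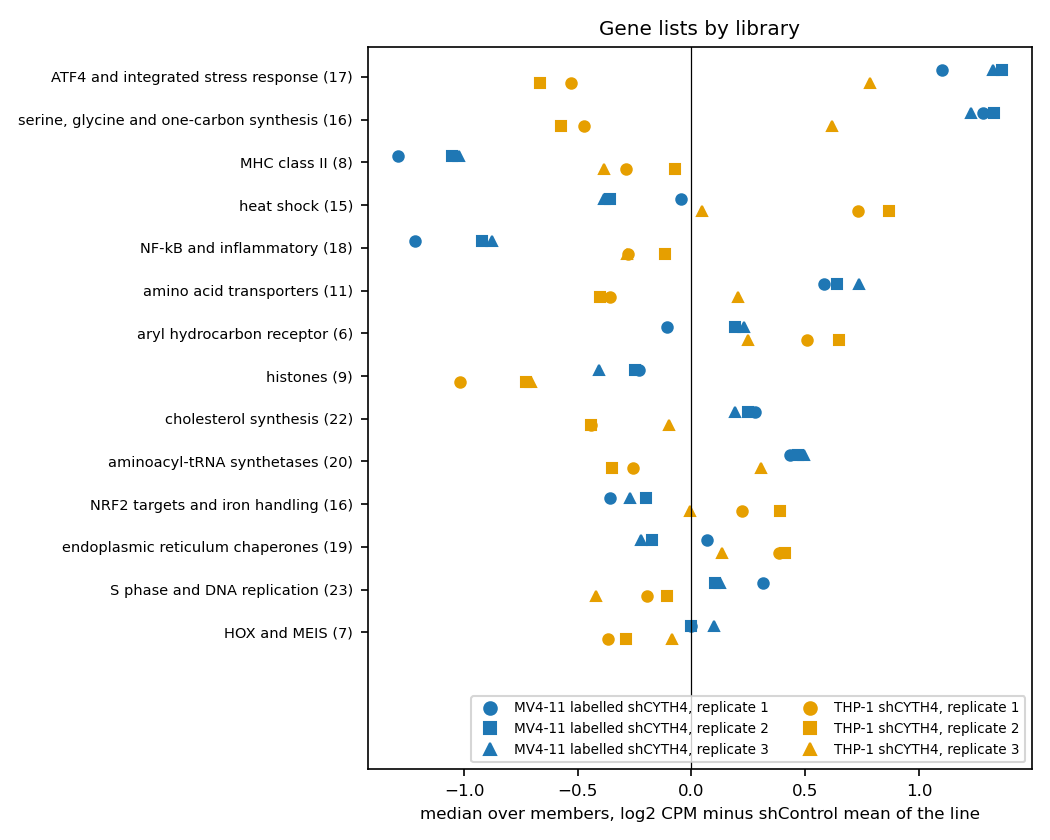
Median over the members of each of 14 gene lists (number of tested members in brackets) in the libraries labelled shCYTH4, in log2 CPM (counts scaled to library depth) minus the mean of the shControl libraries of the line; blue is MV4-11, orange THP-1, and circle, square and triangle are replicates 1, 2 and 3. The ATF4 list stands at 1.10 to 1.36 in MV4-11, while THP-1 replicate 3 stands at 0.78 against -0.53 and -0.67 in replicates 1 and 2.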

How the data were processed

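Poly(A) RNA was sequenced from both ends at 150 bases in 12 libraries, per the labels' protocols. The deposited table holds an estimated count and an FPKM value per gene and library, per the file headers, in 24 value columns, of which 0 lacked a sample. The authors used fastp, StringTie and edgeR, per the submitters' processing notes, with no version or role; the aligner and the genome build were not given in the sources used here. SC and Sh in the column names were taken to mean shControl and shCYTH4. Low counts fall mostly on multiples of 4, so counts are not single fragments.

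The 12350 genes that reached 1 FPKM in 3 or more libraries were tested with edgeR 4.0.16 (R 4.3.3) on the deposited estimated counts, with TMM factors of 0.916 to 1.08, robust quasi-likelihood fits, 4 group means and 8 residual degrees of freedom. Contrasts were each line's response, their difference and their mean, with Benjamini-Hochberg adjustment over all 12350 genes. Alternatives used DESeq2 1.42.0, limma 3.58.1, other scalings and filters, replicate blocks and each library left out. On simulated data for the difference (12350 genes, 200 changed), 41% of changes of 1 and 97% of changes of 2 on the log2 scale were called, with 8 false calls. The changed genes all had a mean count over 200, the 4 groups otherwise shared 1 mean per gene, and no simulated library stood apart. These rates therefore do not carry over to genes at low counts or to libraries such as THP-1 shCYTH4 replicate 3.

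Named genes were CYTH4; then, among genes with a symbol and 2 FPKM or more in the highest group, the 4 opposite responses with the most positive and the 4 with the most negative difference, the 4 largest rises and 4 largest falls of each line in the classes of 1 line, and the 4 shared rises and 4 shared falls whose smaller response was largest; and list members called for the difference. Identifiers without a symbol are not named; a gene outside that rule is marked as chosen once its values were known, which also holds for GPC4, ALG5 and list members that missed the threshold. Gene lists (37, with 583 of 593 entries found) and members were chosen with earlier results of these data known. Same-numbered libraries of a line deviated with correlations of -0.214 to 0.0945 over 6 pairs, and 0 exceeded 0.1, so replicate numbers were not taken as pairs. Differently numbered libraries ran from -0.217 to 0.289, the highest being THP-1 shControl replicate 1 with shCYTH4 replicate 3. Whether libraries pair in another order was not tested. No 2 libraries were identical.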

Additional observations from a re-analysis of the deposited data

Results flagged for a closer look

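The responses of the lines differed, by the test of the difference itself, in 35 of the genes described above, and the log2 difference of each (MV4-11 response minus THP-1 response) is given in brackets. With responses in opposite directions these were FLRT1 (3.05), BALR6 (2.27), BARX1-DT (1.90), CST7 (1.86), OLIG1 (-2.12), PIR (-1.95), NAV3 (-1.75), APOC1 (-1.73), LYZ (-1.67), BAG3 (-1.40), FCGR1A (1.05) and ACAT2 (1.01). With a response in MV4-11 alone they were EBF3 (1.35), VLDLR (1.27), NLRP12 (3.18), C3 (-4.66), COL8A2 (-2.95), RTL8C (-2.06), CYP2S1 (-1.60), NFKB2 (-1.35), RELB (-1.24), HLA-DQB1 (-1.19), HLA-DRB1 (-1.20), CD70 (-1.28) and ZC3H12A (-1.56). With a response in THP-1 alone they were CYP1B1 (-2.43), DNAJB2 (-1.85), HTR7 (-1.27), IL2RG (1.99), NREP (1.34), ARMH1 (1.03), FDPS (0.94), FDFT1 (0.98) and CHGB (5.45). IL4I1 (-2.58) had negative responses of unequal size in both lines, of which that of THP-1 was not called. Of these 35 calls, 9 passed under all 23 alternatives: BARX1-DT, OLIG1, C3, RTL8C, DNAJB2, NFKB2, LYZ, NLRP12 and ZC3H12A.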

How the results depend on the processing

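All 66 called differences kept their sign under all 23 alternatives, which is no independent test, since they were picked in these same libraries. The counts did not keep their size, and the cause was not tested. Against 66 differences, 38 opposite responses, 17 in MV4-11 alone, 10 in THP-1 alone, 107 shared, 99 genes called in MV4-11 and 149 genes called in THP-1, DESeq2 gave 321, 110, 83, 127, 190, 339 and 493. An adjusted p under 0.01 gave 7, 3, 3, 1, 31, 26 and 11. With limma on log2(FPKM + 1) there were 105 differences, 26 in THP-1 alone, 170 shared and 320 THP-1 calls, and with log2(FPKM + 0.1) there were 17 in THP-1 alone. Limma-voom with quantile normalization gave 11 in MV4-11 alone and 4 in THP-1 alone. Libraries of THP-1 fitted alone gave 56 THP-1 calls. With 1 library left out, the 7 counts ran from 15 to 757, 6 to 357, 7 to 122, 1 to 275, 48 to 135, 43 to 316 and 8 to 699. The lowest came without THP-1 shCYTH4 replicate 1 for differences, opposite responses, THP-1 alone and THP-1 calls, without THP-1 shControl replicate 1 for MV4-11 alone, without THP-1 shControl replicate 2 for shared responses, and without MV4-11 shControl replicate 2 for MV4-11 calls; every highest came without THP-1 shCYTH4 replicate 3. Of the 35 named calls, leaving out 1 library lost between 0 (THP-1 shCYTH4 replicate 3) and 22 (THP-1 shCYTH4 replicate 1).

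The replicate block was fitted although the numbers do not pair the libraries. A replicate block within each line gave 28 differences, 14 opposite, 10 in MV4-11 alone, 3 in THP-1 alone, 31 shared, 62 MV4-11 calls and 15 THP-1 calls; a replicate block common to both lines gave 22 opposite, 6 in THP-1 alone and 52 THP-1 calls. Depth ran from 71730093 to 77782719 counts per library, and with 3 libraries a group the 95% interval of a difference had a median half-width of 0.536 on the log2 scale.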
